A study of Homo sapiens with 24 samples.

Results

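The genes described here are 10 classical oestrogen receptor (ER) target genes, GREB1, TFF1, TFF3, XBP1, CA12, SLC39A6, STC2, MYB, IGFBP4 and PDZK1, taken by name from a table of 59609 genes. They were followed in 2 breast cancer cell lines without ER, MDA-MB-231 and MDA-MB-453, to ask which of these genes still moved under treatment and whether an ER antagonist changed them. Both lines are labelled wild-type. MDA-MB-231 cells were grown in RPMI-1640 and MDA-MB-453 cells in DMEM, both with fetal serum, so line and medium cannot be told apart. Treatment lasted 5 days and was DMSO (the solvent), 500 nM abemaciclib, 5 nM fulvestrant or both together (the combination), with 3 biological replicates in each of the 8 groups. Messenger RNA was sequenced from its 3′ end, and levels are given as CPM, counts relative to the scaled total of a library, made comparable within the 12 libraries of a line. In such bulk libraries, fewer cells with a transcript and less of it per cell cannot be told apart.

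ER is a nuclear receptor that binds oestradiol and then DNA, together with factors such as FOXA1 and GATA3, and raises the transcription of the genes above in ER-positive breast cancer. Several of them also answer to other inputs, so their RNA is not a readout of ER alone in a cell that lacks it. Fulvestrant binds ER, blocks it and leads to its degradation. Abemaciclib inhibits the cyclin-dependent kinases CDK4 and CDK6, which lowers the phosphorylation of Rb and holds cells in G1.

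The receptor itself was close to absent. ESR1, which encodes ERα, had 0 counts in 21 of the 24 libraries and at most 8 counts in any library. The libraries with counts all had abemaciclib, and each was the only such library of its group. They were MDA-MB-231 abemaciclib replicate 3 (5 counts), MDA-MB-231 combination replicate 3 (3 counts) and MDA-MB-453 abemaciclib replicate 2 (8 counts). Whether ESR1 differed by treatment was not tested. PGR, the progesterone receptor and itself an ER target, had 3 counts in a single MDA-MB-453 library under DMSO and none elsewhere. Under DMSO, MDA-MB-231 held VIM at 1539 CPM ± 159 (SD, n = 3), whereas MDA-MB-453 had no VIM count in any of its libraries. GATA3 averaged 804 CPM in MDA-MB-453 against 6.47 CPM in the other line, and FOXA1 averaged 191 against 3.52 CPM. Of 6 markers of leukocytes, fibroblasts and endothelium only COL1A1 could be tested, with 19.4 CPM ± 1.90 after abemaciclib against 39.4 CPM ± 5.71 in MDA-MB-453 (2.56 against 5.67 CPM in the other line), while the other 5 had at most 13 counts in any of these groups and CD3E had none. Their part in the results was not tested. Library totals ran from 2873558 to 4158762 counts, at which 3 counts over the libraries of a group stand for 0.255 to 0.300 CPM. Mitochondrially encoded genes took a larger share of counts with abemaciclib, 12.2% ± 1.05 against 8.83% ± 0.213 with DMSO for MDA-MB-231 and 23.8% ± 1.91 against 15.2% ± 0.650 for MDA-MB-453.

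Of the 10 genes, 5 had enough counts to be tested in MDA-MB-231 (XBP1, CA12, SLC39A6, MYB and IGFBP4) and 8 in MDA-MB-453, where TFF1, TFF3 and STC2 were added. PDZK1, a scaffold protein of the apical membrane, had 0 counts in all 24 libraries. In the annotation, 48.8% of the 100-base windows at its 3′ end also occur elsewhere on chromosome 1, and whether reads from it were lost in counting was not tested. GREB1, a chromatin-bound cofactor of ER, had 40 counts over the 12 MDA-MB-231 libraries and 21 over the 12 MDA-MB-453 libraries, and was tested in neither. Its counts in MDA-MB-231 were 3, 0 and 0 under DMSO and 6, 3 and 4 under abemaciclib, which is 4.14 times as many per library total (95% interval 1.14 to 22.7, covering counting error only). Fulvestrant gave 3, 4 and 2 counts there and the combination 3, 3 and 9. In alternative fits that keep low counts, GREB1 did not pass for abemaciclib against DMSO. Its adjusted p was 0.379 with edgeR and 0.272 with DESeq2. In MDA-MB-453 it had 5 counts under DMSO, 7 under abemaciclib, 5 under fulvestrant and 4 under the combination. In the GENCODE annotation on GRCh38, GREB1 lies at chr2:11482341-11642788 on the plus strand and PDZK1 at chr1:145670852-145708148 on the minus strand.

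The sequences upstream of the start sites are shown for the 5 genes that were called between abemaciclib and DMSO in at least one line and have a RefSeq promoter entry, to show which letters of the oestrogen response element lie near the start. ER is also known to act on many of its targets from distant enhancers, which are not shown. They are RefSeq sequence on GRCh38.p14, written 5′ to 3′ on the strand of the gene, cut where the annotated gene begins. IGFBP4 lies at chr17:40443200-40443449 (plus strand), CA12 at chr15:63381847-63382096 (minus), SLC39A6 at chr18:36129386-36129590 (minus), XBP1 at chr22:28800598-28800819 (minus) and STC2 at chr5:173328448-173328664 (minus). Capitals mark the half-site of the oestrogen response element (GGTCA, or TGACC on the other strand) and, in XBP1 only, the endoplasmic reticulum stress response element.
IGFBP4: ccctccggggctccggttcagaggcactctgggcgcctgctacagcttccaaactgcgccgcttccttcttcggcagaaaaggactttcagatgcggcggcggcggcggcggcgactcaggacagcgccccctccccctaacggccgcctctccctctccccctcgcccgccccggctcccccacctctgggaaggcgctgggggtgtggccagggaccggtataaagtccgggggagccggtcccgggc
CA12: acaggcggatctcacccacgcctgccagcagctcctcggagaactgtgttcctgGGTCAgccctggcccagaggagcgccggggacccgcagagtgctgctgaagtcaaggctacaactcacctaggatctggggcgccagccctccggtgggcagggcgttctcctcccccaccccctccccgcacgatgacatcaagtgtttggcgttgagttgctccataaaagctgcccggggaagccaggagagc
SLC39A6: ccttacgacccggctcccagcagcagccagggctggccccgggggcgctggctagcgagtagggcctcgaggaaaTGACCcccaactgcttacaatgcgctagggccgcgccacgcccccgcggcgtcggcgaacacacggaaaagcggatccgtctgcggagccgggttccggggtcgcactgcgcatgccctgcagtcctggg
XBP1: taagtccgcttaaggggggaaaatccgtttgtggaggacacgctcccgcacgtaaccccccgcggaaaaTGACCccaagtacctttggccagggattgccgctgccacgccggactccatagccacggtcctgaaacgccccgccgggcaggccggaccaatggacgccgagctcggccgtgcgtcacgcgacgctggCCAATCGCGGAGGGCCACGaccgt
STC2: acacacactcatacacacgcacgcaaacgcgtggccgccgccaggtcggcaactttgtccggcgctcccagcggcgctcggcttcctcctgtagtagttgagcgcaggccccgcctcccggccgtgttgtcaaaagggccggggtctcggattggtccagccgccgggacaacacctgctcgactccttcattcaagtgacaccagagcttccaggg

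The full element, GGTCA and TGACC with 3 bases of any kind between them, searched on both strands of the 300 bases around each start (250 before and 50 after), was in none of the 9 entries of the 7 genes with an entry. It was in 0.057% of the 35116 RefSeq promoters. The half-site, which is part of the full element, was in 5 of these 7 genes (PDZK1, STC2, CA12, SLC39A6 and XBP1) and in 37.4% of all promoters. In STC2 it lay 23 bases after the start and so outside the stretch shown. The stress response element, CCAAT and CCACG with 9 bases between them, was in XBP1 and in 0.0769% of all promoters, and XBP1 encodes a transcription factor of the unfolded protein response. The forkhead motif TGTTTAC was in MYB and in 3.42% of all promoters. The E2F motifs TTTCCCGC and TTTGGCGC were in none of them, beside 1.63% and 0.652% of all promoters. Only these exact letters were searched, so E2F sites that differ from them would not have been found.

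**Figure D1:**
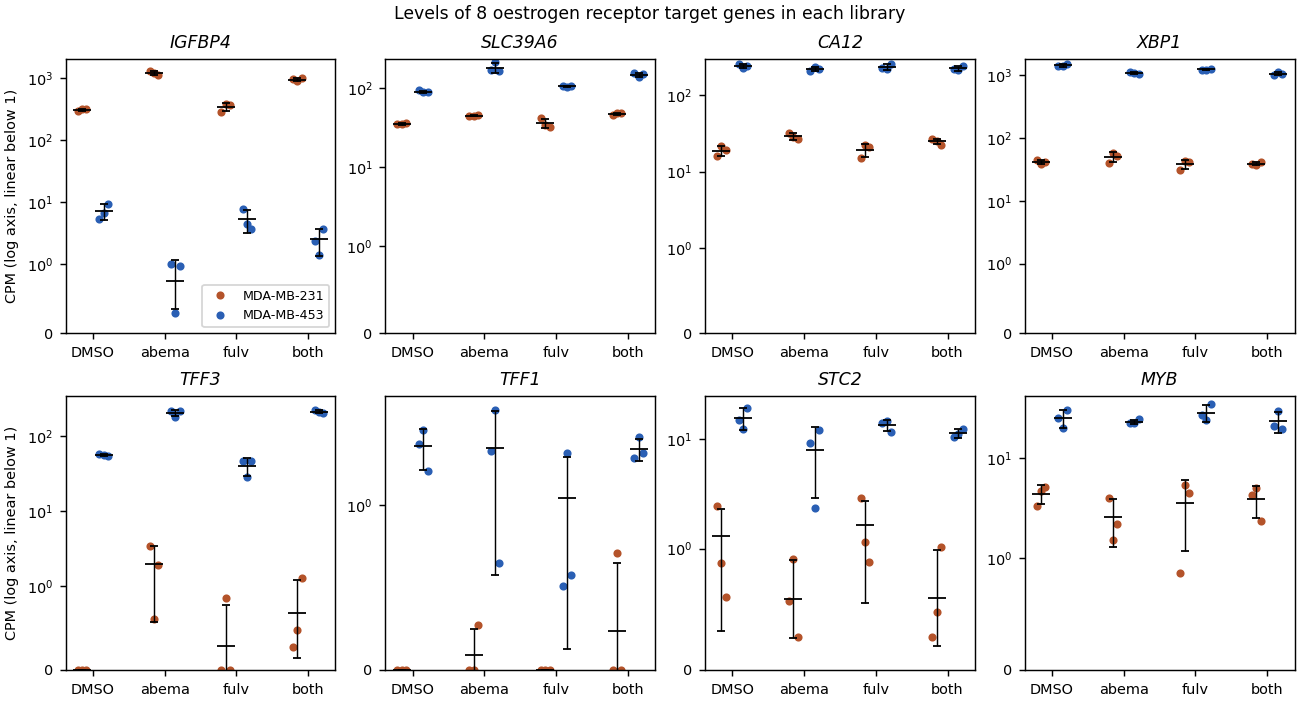
CPM of 8 of the ER target genes in each library (points, 3 per group) under DMSO, abemaciclib (abema), fulvestrant (fulv) and the combination (both), with group mean and SD in black, on a log axis that is linear below 1. IGFBP4 is the gene that is higher in MDA-MB-231 in every group, and the other 7 are higher on average in MDA-MB-453. Error bars that would pass below 0 end at the axis.

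Under DMSO all 8 genes that could be tested across lines differed between them, 7 higher in MDA-MB-453 and 1 lower, beside 69.8% of all genes called, 34.3% higher and 35.6% lower (edgeR quasi-likelihood test, adjusted p below 0.05 over 12750 genes). XBP1 averaged 1426 CPM ± 55.9 in MDA-MB-453 against 41.6 CPM ± 2.96, a log2 difference of 5.17 (SE 0.11, adjusted p = 9.43e-38). CA12, a membrane carbonic anhydrase, was higher by 3.74 on the log2 scale (SE 0.14), STC2, a secreted glycoprotein, by 3.62 (SE 0.51), MYB, a transcription factor gene at chr6:135181308-135219173, by 2.55 (SE 0.34) and SLC39A6, the zinc transporter LIV-1, by 1.42 (SE 0.13). TFF1 and TFF3, small secreted trefoil peptides whose genes lie 46872 bases apart on the minus strand (TFF3 at chr21:42311667-42315409, TFF1 at chr21:42362282-42366535), had no count in MDA-MB-231 under DMSO. Taking 3 counts over the whole group as the floor, TFF3 was at least 185-fold and TFF1 at least 8.43-fold higher in MDA-MB-453. IGFBP4, a secreted protein that binds insulin-like growth factors, went the other way. Its 3 DMSO libraries read 300, 320 and 320 CPM in MDA-MB-231 but 5.47, 6.75 and 9.59 CPM in MDA-MB-453, a log2 difference of -5.35 (SE 0.16, adjusted p = 6.85e-32).

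Abemaciclib raised IGFBP4 in MDA-MB-231. The gene read 300, 320 and 320 CPM under DMSO and 1307, 1229 and 1149 CPM under abemaciclib. It was at 291, 392 and 370 CPM with fulvestrant alone and at 971, 909 and 998 CPM with the combination. All libraries with abemaciclib lay above all libraries without it. The log2 fold change was 1.97 (SE 0.09, edgeR adjusted p = 2.17e-20), and in the fulvestrant-treated libraries, which share no sample with the first comparison, it was 1.45 (SE 0.09, adjusted p = 2.09e-16).

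CA12 also rose in MDA-MB-231. It read 15.8, 21.5 and 19.3 CPM under DMSO and 32.3, 28.3 and 26.7 CPM under abemaciclib, without overlap, for a log2 fold change of 0.62 (SE 0.21, edgeR adjusted p = 0.0190). This call was lost without DMSO replicate 1 (0.51, adjusted p = 0.0982) and without abemaciclib replicate 1 (0.54, adjusted p = 0.0880). Combination against fulvestrant gave 0.35 (SE 0.21, adjusted p = 0.198). For SLC39A6 the 3 values were 34.7, 34.7 and 36.4 CPM under DMSO and 44.3, 44.7 and 45.0 CPM under abemaciclib. These did not overlap, but the log2 fold change of 0.34 (SE 0.16) had an adjusted p of 0.101. The fulvestrant libraries read 41.5, 34.2 and 31.9 CPM and the combination 45.7, 47.4 and 48.6 CPM. In that comparison SLC39A6 had a log2 fold change of 0.40 (SE 0.16) and passed narrowly at an adjusted p of 0.0458, a call that held in only 1 of the 6 fits without 1 library. XBP1 (log2 fold change 0.26, adjusted p = 0.247) and MYB (-0.76, adjusted p = 0.348) did not pass the test under abemaciclib alone, and MYB had only 27 to 46 counts per group.

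In MDA-MB-231, then, 2 of 5 tested genes were called between abemaciclib and DMSO, both higher, beside 33.7% of all genes (16.9% higher). The comparisons against DMSO share the DMSO libraries and are not independent. Between combination and fulvestrant it was again 2 of 5, IGFBP4 and SLC39A6, beside 36.1% of all genes, and between combination and DMSO the same pair, beside 35.4%, with SLC39A6 at 0.42 (adjusted p = 0.0350) but called in only 1 of the 6 fits without 1 library. The genes TFF1, TFF3 and STC2 had too few counts for the test in this line. TFF1 had 0 counts under DMSO, 1 under abemaciclib, 0 under fulvestrant and 3 under the combination. STC2 had 13, 6, 17 and 7 counts in the same order, and its ratio of abemaciclib to DMSO was 0.441 (95% counting interval 0.138 to 1.24). TFF3 was at 0 in all 3 DMSO libraries. It had 12, 2 and 7 counts under abemaciclib, 0, 3 and 0 under fulvestrant and 1, 2 and 5 under the combination. Against the floor of 3 counts over the group, abemaciclib was 6.69-fold higher than DMSO. The lower 95% limit of the ratio, covering counting error only, was 4.98. For abemaciclib against DMSO, TFF3 passed in the alternative fits that keep low counts, at an adjusted p of 0.0125 with edgeR and 0.0141 with DESeq2. In the same fits it did not pass for combination against DMSO (0.108 and 0.118) or combination against fulvestrant (0.635 and 0.620). With the fulvestrant libraries at 3 counts, the ratio of combination to fulvestrant was 2.36 with a counting interval of 0.567 to 13.8.

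In MDA-MB-453 the largest rise among the 8 genes was that of TFF3. It read 57.0, 55.3 and 53.3 CPM under DMSO and 213, 179 and 215 CPM under abemaciclib. Fulvestrant alone gave 45.6, 27.9 and 45.8 CPM and the combination 218, 209 and 199 CPM. The libraries with and without abemaciclib did not overlap. The log2 fold change was 1.87 (SE 0.13, edgeR adjusted p = 7.36e-17) without fulvestrant and 2.39 (SE 0.13, adjusted p = 3.37e-20) with it. The mitochondrial share of counts rose in the same libraries, and with mitochondrially encoded genes removed the TFF3 log2 fold change was 1.88.

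SLC39A6 rose in MDA-MB-453 from 93.0, 87.7 and 89.2 CPM under DMSO to 169, 211 and 163 CPM under abemaciclib, a log2 fold change of 1.01 (SE 0.11, edgeR adjusted p = 1.66e-10). With fulvestrant present it went from 105, 103 and 105 CPM to 154, 138 and 150 CPM in the combination (log2 fold change 0.50, SE 0.11, adjusted p = 2.18e-04). Another gene on the same strand overlaps SLC39A6 in the annotation used here, a later release than the one used for counting. Whether reads were lost or shared there was not tested.

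XBP1, STC2 and IGFBP4 fell in MDA-MB-453. XBP1 went from 1421, 1373 and 1485 CPM under DMSO to 1123, 1069 and 1055 CPM under abemaciclib, without overlap, a log2 fold change of -0.40 (SE 0.07, edgeR adjusted p = 1.55e-05). The fulvestrant libraries read 1218, 1196 and 1274 CPM and the combination 1022, 1116 and 1029 CPM. This gave -0.22 for XBP1 (SE 0.07, adjusted p = 0.0142), a call that was lost without combination replicate 1 (-0.20, adjusted p = 0.0685) or combination replicate 3 (-0.21, adjusted p = 0.0584). IGFBP4, the gene that rose in MDA-MB-231, had 19, 25 and 34 counts under DMSO and 4, 1 and 3 counts under abemaciclib in MDA-MB-453, with log2 fold change -3.18 (SE 0.62, adjusted p = 5.66e-05). It had 62 counts under fulvestrant and 27 under the combination. In combination against fulvestrant its log2 fold change was -1.06 (95% interval -2.13 to 0.01, adjusted p = 0.114).

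STC2 read 15.0, 12.4 and 19.5 CPM under DMSO and 9.26, 2.34 and 12.1 CPM under abemaciclib in MDA-MB-453. The groups did not overlap and the log2 fold change was -0.99 (SE 0.33, edgeR adjusted p = 0.0164). It rested on single libraries, since it was -0.56 (adjusted p = 0.173) without abemaciclib replicate 2 and -0.80 (adjusted p = 0.103) without DMSO replicate 3. Under fulvestrant STC2 read 14.1, 14.6 and 11.6 CPM and under the combination 10.4, 11.2 and 12.4 CPM, an overlap, with a log2 fold change of -0.24 (adjusted p = 0.594). CA12 (log2 fold change -0.14, 95% interval -0.33 to 0.05), MYB (-0.13, -0.56 to 0.31) and TFF1 (-0.02, -1.36 to 1.33) did not pass the test. CA12 stayed between 204 and 255 CPM and MYB between 19.4 and 34.2 CPM over all 12 libraries. TFF1 had 26 counts under abemaciclib and 27 under DMSO, and its interval, from 0.389-fold to 2.51-fold, shows how little this depth resolves.

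Abemaciclib against DMSO thus called 5 of the 8 genes tested in MDA-MB-453, of which 2 were higher and 3 lower, beside 36.0% of all genes (16.6% higher and 19.4% lower). Between combination and fulvestrant 3 were called, beside 36.6% of all genes. Between combination and DMSO 4 were called, beside 37.6%. These were TFF3 at 1.91, SLC39A6 at 0.71, XBP1 at -0.43 and IGFBP4 at -1.48 on the log2 scale, the last of which was not called without DMSO replicate 3 (-1.24), combination replicate 1 (-1.45) or combination replicate 2 (-1.19).

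**Figure D2:**
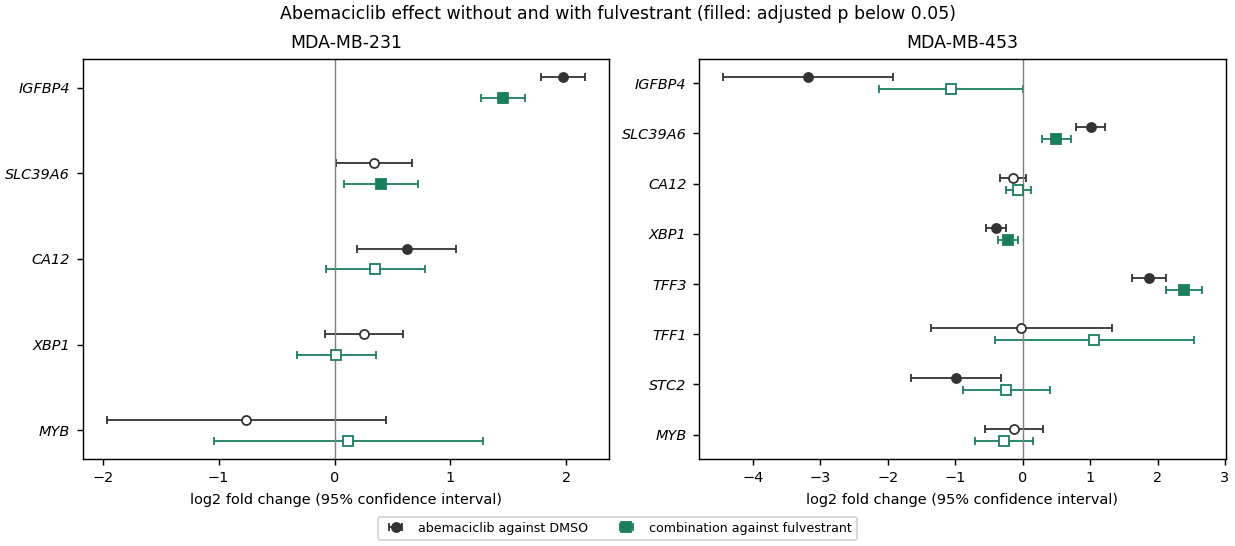
Log2 fold change with its 95% confidence interval for abemaciclib against DMSO (circles) and combination against fulvestrant (squares) in each line, filled where the adjusted p was below 0.05. IGFBP4 lies at 1.97 and 1.45 in MDA-MB-231 but at -3.18 and -1.06 in MDA-MB-453, and TFF3 lies at 1.87 and 2.39 in MDA-MB-453.

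The abemaciclib effect was then compared between the lines in 1 fit over all 24 libraries. It differed for 5 of 8 genes, beside 20.7% of all genes. IGFBP4 differed by -5.15 on the log2 scale (MDA-MB-453 minus MDA-MB-231, SE 0.41, edgeR adjusted p = 2.53e-14), with opposite called directions in the lines. CA12 differed by -0.76 (SE 0.19, adjusted p = 0.00253) and XBP1 by -0.65 (SE 0.15, adjusted p = 8.69e-04). SLC39A6 differed by 0.68 (SE 0.18, adjusted p = 0.00385), with the larger value in MDA-MB-453, but was not called without MDA-MB-453 abemaciclib replicate 2 (0.48, adjusted p = 0.0556). The TFF3 difference of -3.95 (SE 1.45, adjusted p = 0.0446) depends on the prior count, because MDA-MB-231 had 0 counts under DMSO, and was not called in 5 of 12 fits without 1 library (adjusted p up to 0.116). STC2 (0.15), MYB (0.64) and TFF1 (-1.88) gave adjusted p-values of 0.448 to 0.991 with wide intervals.

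Fulvestrant was tested without abemaciclib, with abemaciclib, and averaged over both. Against DMSO it called 0 of 5 genes in MDA-MB-231, beside 0% of all genes by edgeR (799 at an unadjusted p under 0.05, and 0 by DESeq2). Without fulvestrant replicate 1, 205 of all genes were called, 36 higher and 169 lower, but none of the 5. Of the 5 none had an unadjusted p under 0.05, and DESeq2 also called 0. In MDA-MB-453 it called 0 of 8, beside 1.41% of all genes. There 2 genes, TFF3 and XBP1, had an unadjusted p under 0.05, and DESeq2 called both.

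By edgeR's adjusted p, TFF3 in MDA-MB-453 came nearest to a call for fulvestrant against DMSO. Its 3 libraries under fulvestrant alone read 45.6, 27.9 and 45.8 CPM, all below the lowest DMSO library at 53.3 CPM. The log2 fold change was -0.48 (95% interval -0.76 to -0.20, edgeR adjusted p = 0.0667). It turned on single libraries. It was -0.27 (adjusted p = 0.624) without fulvestrant replicate 2, the library at 27.9 CPM, and -0.59 (adjusted p = 0.00596) without fulvestrant replicate 3, the 1 of 6 such fits that called it. DESeq2 gave an adjusted p of 0.0238. In the presence of abemaciclib, TFF3 was 0.04 higher with fulvestrant (-0.19 to 0.27, adjusted p = 0.918). XBP1 also lay below every DMSO library with fulvestrant alone. Its log2 fold change was -0.21 (-0.36 to -0.07, adjusted p = 0.130 by edgeR and 0.00775 by DESeq2), and -0.03 in combination against abemaciclib (-0.18 to 0.11, adjusted p = 0.889). SLC39A6 went the other way, with every library under fulvestrant alone (103 to 105 CPM) above every DMSO library (87.7 to 93.0 CPM). The log2 fold change of SLC39A6 was 0.21 (-0.01 to 0.44, edgeR adjusted p = 0.384). TFF1 had 13 counts with fulvestrant and 27 with DMSO, with overlap, at -1.12 (-2.58 to 0.34, edgeR adjusted p = 0.530).

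Added to abemaciclib, fulvestrant called 0 of 5 genes in MDA-MB-231, beside 0.0265% of all genes, with 2 at an unadjusted p under 0.05 and 1 called by DESeq2. That gene was IGFBP4, for which every combination library (909 to 998 CPM) lay below every abemaciclib library (1149 to 1307 CPM). Its log2 fold change was -0.36 (95% interval -0.54 to -0.18), with an adjusted p of 0.116 by edgeR and 0.00856 by DESeq2. The other gene with an unadjusted p under 0.05 was XBP1 (-0.35, -0.69 to -0.02, edgeR adjusted p = 0.449), whose groups overlapped. CA12 also lay lower without overlap (22.5 to 26.4 against 26.7 to 32.3 CPM, log2 fold change -0.23, edgeR adjusted p = 0.775). SLC39A6 lay higher without overlap (45.7 to 48.6 against 44.3 to 45.0 CPM, 0.08, adjusted p = 0.912). TFF3, too low for the main test in this line, had 21 counts under abemaciclib and 8 under the combination, with overlap. The ratio was 0.339 (0.130 to 0.797, covering counting error only). The edgeR fit that keeps low counts gave an adjusted p of 0.839. In MDA-MB-453 fulvestrant added to abemaciclib called 0 of 8, beside 2.46% of all genes, with 2 at an unadjusted p under 0.05 and 0 by DESeq2. Those were SLC39A6 (-0.29, -0.51 to -0.08, adjusted p = 0.131) and IGFBP4 (1.70, 0.31 to 3.09, adjusted p = 0.203), the latter resting on 8 counts under abemaciclib and 27 under the combination.

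Averaged over the presence of abemaciclib, 6 libraries against 6, no gene of the group was called in either line. All genes called came to 1.18% in MDA-MB-453 and 0% in the other line, where 642 had an unadjusted p under 0.05 and DESeq2 called 1. In MDA-MB-231, 0 of the 5 had an unadjusted p under 0.05 and DESeq2 called 0. In MDA-MB-453, 2 of the 8 (TFF3 and XBP1) had one and DESeq2 called 1 (XBP1, adjusted p = 0.0206). An average can hide effects of opposite sign without and with abemaciclib, as for IGFBP4 in MDA-MB-231 (0.16 and -0.36). SLC39A6 in MDA-MB-453 (0.21 and -0.29) was another such case. The 95% intervals show the size of averaged effect that remained possible, not that of either effect alone. In MDA-MB-231 they ran from -0.23 to 0.03 for IGFBP4, -0.18 to 0.28 for SLC39A6, -0.40 to 0.20 for CA12, -0.47 to 0.01 for XBP1 and -0.69 to 0.98 for MYB. In MDA-MB-453 they ran from -0.14 to 0.12 for CA12, -0.19 to 0.11 for SLC39A6, -0.23 to -0.02 for XBP1, -0.40 to -0.04 for TFF3 and -0.20 to 0.41 for MYB. They were wider for STC2 (-0.31 to 0.63), IGFBP4 (-0.20 to 1.49) and TFF1 (-1.57 to 0.42).

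**Figure D3:**
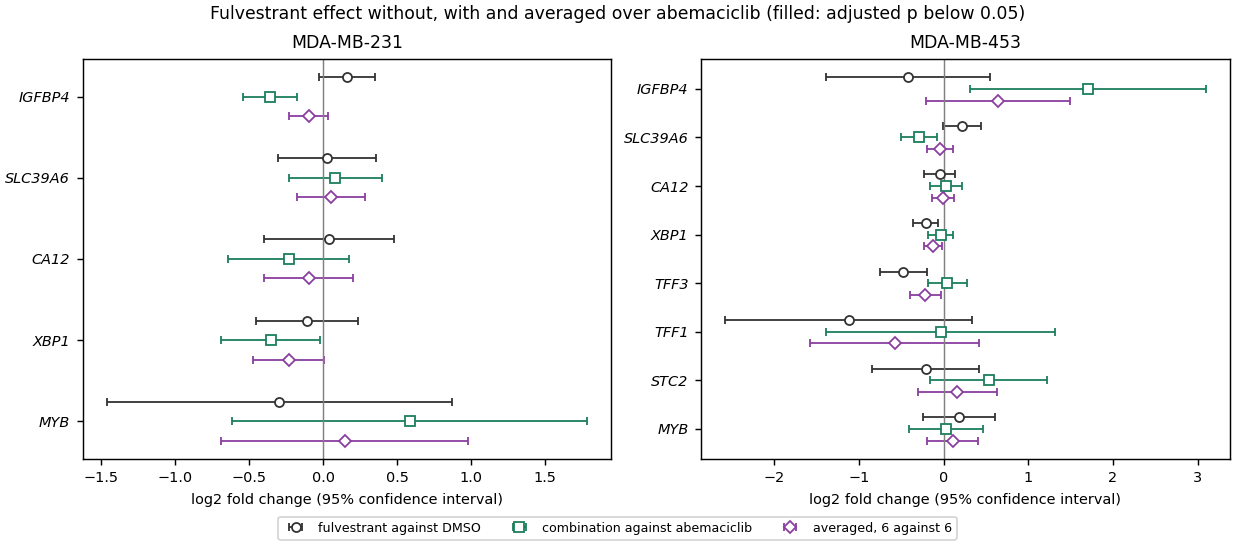
Log2 fold change with its 95% confidence interval for fulvestrant against DMSO (circles), combination against abemaciclib (squares) and fulvestrant averaged over abemaciclib (diamonds) in each line. No symbol is filled, since no adjusted p was below 0.05, and the TFF3 circle in MDA-MB-453 lies at -0.48.

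Whether the abemaciclib effect depended on fulvestrant was tested as an interaction. In MDA-MB-231 it called 0 of 5 genes, beside 0.124% of all genes, with 1 gene at an unadjusted p under 0.05 and 1 called by DESeq2. This was IGFBP4, with abemaciclib effects of 1.97 without and 1.45 with fulvestrant (interaction -0.52, 95% interval -0.78 to -0.26, adjusted p = 0.0741 by edgeR and 0.00495 by DESeq2). In MDA-MB-453 it called 1 of 8, beside 3.80% of all genes, with 3 at an unadjusted p under 0.05 and 1 called by DESeq2. SLC39A6 rose less with fulvestrant present (interaction -0.51, 95% interval -0.82 to -0.20, adjusted p = 0.0467), but this was called in only 3 of the 12 fits without 1 library, with adjusted p-values from 0.0195 to 0.214. For TFF3 the interaction was 0.52 (0.16 to 0.88, adjusted p = 0.0969), called in 1 of the 12 fits without 1 library, at 0.63 (adjusted p = 0.0178) without fulvestrant replicate 3 and 0.31 (adjusted p = 0.457) without fulvestrant replicate 2. For IGFBP4, with 8 counts under abemaciclib, it was 2.12 (0.42 to 3.82, adjusted p = 0.172).

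For comparison, 59 other genes that oestrogen induces in ER-positive cells were counted in the same fits. In MDA-MB-231, 37 could be tested and abemaciclib against DMSO called 18 of them (48.6%, beside 33.7% of all genes), 13 higher and 5 lower. The median log2 fold change of the 37 was 0.33 beside 0.00 over all genes. Between combination and fulvestrant 12 were higher and 4 lower (43.2%, beside 36.1% of all genes), with a smaller median of 0.10. AGR2, a disulphide isomerase of secretory cells, went from 1.29 CPM ± 0.93 under DMSO to 29.3 CPM ± 0.75 under abemaciclib (log2 fold change 4.46, SE 0.39, edgeR adjusted p = 2.78e-12). KRT19, a luminal keratin, rose by 1.41 and CTSD, the lysosomal protease cathepsin D, by 1.30, whereas SLC7A5, an amino acid transporter, changed by -1.27, FKBP4, a chaperone of steroid receptors, by -1.19 and RARA, a retinoic acid receptor, by -1.18.

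In MDA-MB-453, 38 of the 59 could be tested and 20 were called (52.6%, beside 36.0% of all genes), 10 higher and 10 lower, with a median of 0.26 beside 0.00 over all genes. PTGES, a prostaglandin E synthase, rose by 2.93 on the log2 scale (SE 0.22, edgeR adjusted p = 2.01e-15), SLC22A5, a carnitine transporter, by 1.12 and SYBU by 1.09, whereas SLC7A5 changed by -1.62, TIAM1 by -1.41 and THBS1 by -0.74. AGR2, which rose in MDA-MB-231, was lower under abemaciclib in this line (-0.51, edgeR adjusted p = 3.60e-05). Fulvestrant against DMSO called 0 of 37 in MDA-MB-231, beside 0% of all genes, and 2 of 38 in MDA-MB-453, both lower, beside 1.41%. Combination against abemaciclib called none of them in either line. In MDA-MB-453, combination against fulvestrant gave 13 higher and 9 lower (57.9%, beside 36.6% of all genes), with a median of -0.05. The positive median of abemaciclib against DMSO was thus not seen there with fulvestrant present.

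Among the receptors and cofactors of ER signalling, abemaciclib called 4 of 12 in MDA-MB-231, 3 of them higher, and 3 of 11 in MDA-MB-453, each higher. These shares, 33.3% and 27.3%, were no larger than the 33.7% and 36.0% over all genes. ESRRA, an orphan receptor related to ER, rose in both lines (log2 fold change 0.63, adjusted p = 0.00701, and 0.68, adjusted p = 1.52e-04). NCOR1, a corepressor, changed by 0.47 in MDA-MB-453 (adjusted p = 2.66e-04) but by -0.35 in the other line (adjusted p = 0.0183). TFAP2C rose by 1.14 in MDA-MB-231 and GATA3 by 0.35 in MDA-MB-453. ESR2, which encodes ERβ, had at most 3 counts in any group.

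XBP1 and STC2 also belong to the stress response of the endoplasmic reticulum. Of 22 other genes of that response and of ATF4 tested in MDA-MB-453, 8 were higher and 3 lower under abemaciclib (median 0.31), with the chaperone HYOU1 at 0.67, the mTORC1 inhibitors DDIT4 at 1.13 and SESN2 at 0.75, the serine synthesis enzyme PHGDH at -2.52, TRIB3 at -0.69 and DNAJB11 at -0.35. The share called was 50% beside 36.0% of all genes. Of 23 in MDA-MB-231, 3 were higher and 5 lower (median -0.17), with DDIT4 at 2.32 and ATF4 at -0.51, a share of 34.8% near the 33.7% over all genes. Proliferation markers fell for 19 of 20 in MDA-MB-231 (median -0.91) and 20 of 20 in MDA-MB-453 (median -3.83), with RRM2, a ribonucleotide reductase subunit, at -1.74 and -7.60.

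**Figure D4:**
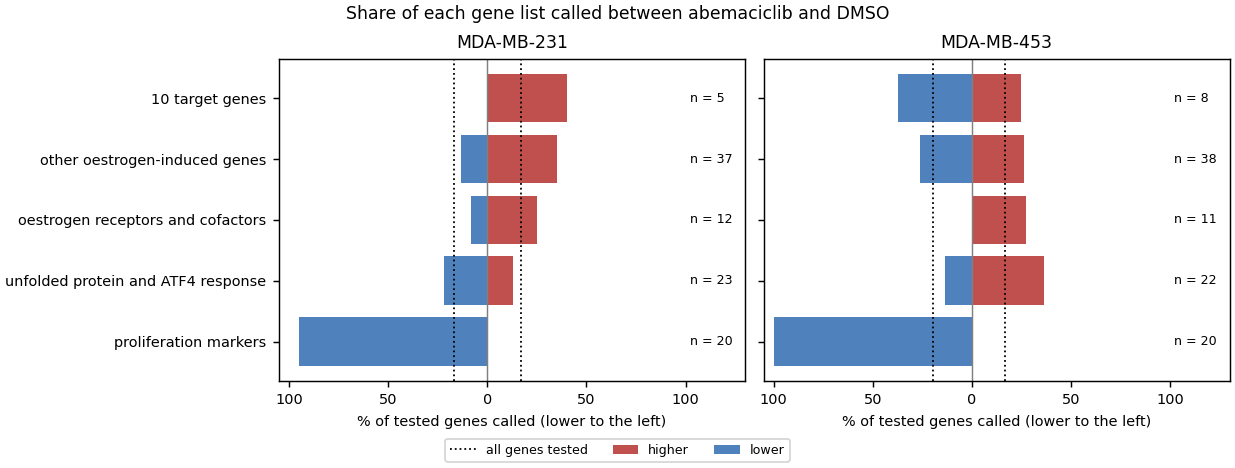
Percentage of the tested genes of each list that were called higher (red, right) or lower (blue, left) between abemaciclib and DMSO in each line, with the number tested beside each bar and the same percentages over all genes as dotted lines. The 10 ER target genes were called higher for 2 of 5 in MDA-MB-231, and for 2 higher and 3 lower of 8 in MDA-MB-453.

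For each gene the most similar profile among genes averaging at least 10 CPM was found by Pearson's r of log2 CPM. It was taken over the 12 libraries of a line, which share the treatments, so r describes likeness only. Each r is the highest among 7922 to 8042 candidates, and how high the best r would be among unrelated genes was not tested. In MDA-MB-231 the nearest profiles were MXD4 for IGFBP4 (r = 0.99), RRAGD for SLC39A6 (0.97), PPIA for CA12 (0.96), AC244102.4 for MYB (0.86) and CYBRD1 for XBP1 (0.83). In MDA-MB-453 they were the mitochondrially encoded MT-ND2 for TFF3 (r = 0.99), RPL36 for XBP1 (0.98), ERBB2 for SLC39A6 (0.98), PRPF3 for IGFBP4 (0.94), GAR1 for STC2 (0.93), BNIP1 for CA12 (0.90), ZNF687 for MYB (0.89) and SEC24A for TFF1 (0.86). ERBB2, the receptor HER2, rose with SLC39A6 from 237 CPM ± 13.7 under DMSO to 444 CPM ± 49.0 under abemaciclib in MDA-MB-453.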

How the data were processed

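Cells of both lines were treated for 5 days and 24 QuantSeq 3′ libraries were made. Per the study's methods, the authors used BBDuk for trimming, STAR for alignment to hg38, and featureCounts with a GENCODE annotation for counting. The deposited values are raw gene counts, not normalized. The handling of strand and of reads with several alignments is not given in the sources used here.

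Counts were tested with edgeR 4.0.16 (TMM, filterByExpr, glmQLFit and glmQLFTest) over the 12 libraries of a line (11314 and 11080 genes tested) and, between lines, over all 24, with Benjamini-Hochberg adjustment over all genes and calls at 0.05. Intervals are 95%. Levels are CPM scaled by TMM factors within a line. Fits were tested on simulated data. Alternatives were DESeq2 1.42.0, its size factors, no filter, no mitochondrial genes, only the groups compared, a replicate block, each library left out and, added after seeing the data, library totals only. Gene positions and overlaps are from GENCODE on GRCh38, in a later release than the study's methods name for counting. Named genes are all 10 members, per list up to 3 called genes in each direction with the largest change at 10 CPM or more, and the nearest profile of each member. AGR2, KRT19 and other list genes followed this rule, while FOXA1, ESR1, ESR2, PGR and VIM are markers or receptors. One marker and the gene list and motif tied to it are not reported here. The p-values measure the spread among these libraries. The members and lists were chosen with earlier results of these data known. The labels do not say whether a replicate number marks a shared day. Deviations of same-numbered libraries correlated at -0.052 to 0.045 for MDA-MB-453 and -0.084 to 0.049 for the other line. Differently numbered libraries of different groups gave -0.071 to 0.114 and -0.048 to 0.083, so no pairing by number was seen. Counting noise could mask a weak one. Replicates of a group differed by more than counting noise (chi-square per degree of freedom 2.64 to 8.65).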

Additional observations from a re-analysis of the deposited data

Results flagged for a closer look

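6 values were picked out because the same contrast differed between groups by its own test. The abemaciclib effect on IGFBP4 differed between MDA-MB-453 and MDA-MB-231 by -5.15 on the log2 scale, from -3.18 and 1.97 in the respective lines. Under DMSO it had 78 counts in the former line and 3133 in the latter. The difference was -0.76 for CA12 (-0.14 and 0.62), -0.65 for XBP1 (-0.40 and 0.26) and 0.68 for SLC39A6 (1.01 and 0.34). For TFF3 it was -3.95, a value that depends on the prior count, since MDA-MB-231 had 0 counts under DMSO. Within MDA-MB-453, the abemaciclib effect on SLC39A6 was 1.01 without and 0.50 with fulvestrant, an interaction of -0.51.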

How the results depend on the processing

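Over 1561 values of single genes under the alternatives, 1504 kept their side of the threshold, 42 lost a call, 15 gained one and none of the called values turned sign. With the replicate block, 1 gene in place of 2 was called between combination and fulvestrant in MDA-MB-231 (SLC39A6 lost, adjusted p = 0.0544), 0 in place of 1 for the interaction in MDA-MB-453 (SLC39A6, 0.0655), and the TFF3 difference between lines was lost (0.0510). The block changed no other call. Library totals only also left 0 for the MDA-MB-453 interaction (SLC39A6, adjusted p = 0.0735). Combination against fulvestrant in MDA-MB-231 fell to 1 with DESeq2, with no filter and with only the groups compared. With the same 3 alternatives, combination against abemaciclib there rose from 0 to 1 (IGFBP4, adjusted p = 0.00856, 0.0487 and 0.0437). The MDA-MB-231 interaction rose from 0 to 1 with DESeq2 and with no filter (IGFBP4, 0.00495 and 0.0168), and combination against DMSO there fell from 2 to 1 with no filter. Fulvestrant against DMSO in MDA-MB-453 rose from 0 to 2 with DESeq2 (TFF3 and XBP1) and to 1 with no filter (TFF3, 0.0335), and the averaged fulvestrant effect there to 1 with DESeq2 (XBP1). The cause was not tested. Leaving out 1 library gave 1 to 2 calls for abemaciclib against DMSO, combination against fulvestrant and combination against DMSO in MDA-MB-231, 0 to 1 for combination against abemaciclib and for the interaction there, and 0 to 2 for fulvestrant against DMSO and for the interaction in MDA-MB-453. Over all genes, DESeq2 called 75 in place of 3 for combination against abemaciclib, 1 in place of 0 for the averaged fulvestrant effect and 127 in place of 14 for the interaction in MDA-MB-231. In the other line it called 334 in place of 156 for fulvestrant against DMSO (157 higher and 177 lower, in place of 112 and 44) and, for the averaged effect, 29 higher and 202 lower in place of 63 and 68. For combination against abemaciclib in MDA-MB-231, the 3 became 5 with DESeq2's size factors, 49 with no filter, 9 without mitochondrial genes and 30 with only the groups compared. The 14 of the interaction there became 132 with no filter and 6 with the block. With no filter, fulvestrant against DMSO called 14 genes in place of 0 in MDA-MB-231 (4 in place of 0 for the averaged effect) and 269 in place of 156 in MDA-MB-453, and with library totals only 246 in MDA-MB-453, 233 higher and 13 lower, beside 112 and 44. With 1 library left out, the all-gene counts in MDA-MB-231 went from 0 up to 205 for fulvestrant against DMSO and from 14 up to 449 for the interaction (both without fulvestrant replicate 1), and from 3 up to 96 for combination against abemaciclib (without abemaciclib replicate 3, which gave 160 for the interaction). In MDA-MB-453 the lowest and highest were 5 and 786 for fulvestrant against DMSO, 32 and 408 for the averaged effect, 191 and 873 for the interaction (the highest of each without fulvestrant replicate 3) and 83 and 518 for combination against abemaciclib (highest without abemaciclib replicate 1). GREB1 in both lines, and TFF1, TFF3 and STC2 in MDA-MB-231, had too few counts for the main test, and PDZK1 had none.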
